A study of Mus musculus with 12 samples.

Results

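The genes described here are 38 macrophage, myeloid and antigen presentation genes, out of 55573 gene identifiers counted in mouse extensor digitorum longus (EDL), a fast hindlimb muscle. Members were taken by symbol: every listed symbol matched 1 Ensembl identifier of the GRCm38 annotation. The list was drawn up knowing that such genes were lower in isolated muscle fibers than in whole muscle. For these genes, differences from whole muscle are therefore a description: counts of calls are printed for them, but only differences among fiber preparations are read as tests. The 12 libraries came from C57BL/6 mice and fell into 4 groups of 3: a lone EDL myofiber per library, a pool of 5 myofibers, a pool of 20 myofibers, or the whole EDL. No genetic change or treatment is named for any group. All libraries were made with a SMART-Seq HT kit, which amplifies full-length cDNA from very small amounts of RNA. The labels give direct lysis for lone fibers and Trizol extraction for whole muscle, with no separate statement for the pools. Fiber isolation and extraction of RNA thus changed together and cannot be told apart. Separate animals are not stated for the replicates, and p-values here reflect only how these libraries varied.

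A skeletal muscle fiber is one long multinucleate cell. Around it lie capillaries, fibroblasts and resident macrophages, phagocytes that clear debris and sample antigen. Macrophages and other antigen-presenting cells display peptides on MHC class II molecules, each a heterodimer of an alpha and a beta chain. The invariant chain Cd74 escorts these chains through the cell, and the lysosomal protease cathepsin S (Ctss) trims Cd74 so that peptide can bind. Transcription of class II genes depends on upstream elements that include the Y box, and many myeloid genes carry sites for the factor PU.1.

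Upstream sequence is shown for 4 members whose values recur below, in lower case with motif matches in capitals. It was taken from RefSeq (GRCm38.p6) as the 250 bases before the annotated start. Of the 38 members, 29 were searched. The rest, class II genes among them, were not searched, and nothing is said here of their upstream sequence. H2-Aa and H2-Eb1 encode a class II alpha and a class II beta chain. Their capitals mark the Y box CTGATTGG, which lay 51 bases before the start of H2-Aa (chr17:34287824-34288073, minus strand) and 62 bases before that of H2-Eb1 (chr17:34305617-34305866, plus strand). Pf4 encodes the chemokine platelet factor 4. Its capitals mark the PU.1-type core GAGGAAG, read on the opposite strand and lying 9 bases before the start (chr5:90772185-90772434, plus strand). Cd68 encodes a lysosomal glycoprotein, and its window (chr11:69666171-69666420, minus strand) held neither motif.
H2-Aa: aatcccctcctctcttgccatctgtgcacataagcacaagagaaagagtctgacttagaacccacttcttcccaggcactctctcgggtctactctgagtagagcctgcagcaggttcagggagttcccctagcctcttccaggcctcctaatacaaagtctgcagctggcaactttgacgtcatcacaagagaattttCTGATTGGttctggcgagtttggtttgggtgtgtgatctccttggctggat
H2-Eb1: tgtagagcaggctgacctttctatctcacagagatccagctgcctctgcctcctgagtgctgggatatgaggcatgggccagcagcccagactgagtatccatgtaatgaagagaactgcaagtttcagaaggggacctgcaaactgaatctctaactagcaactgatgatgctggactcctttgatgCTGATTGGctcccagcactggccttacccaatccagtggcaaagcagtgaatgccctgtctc
Pf4: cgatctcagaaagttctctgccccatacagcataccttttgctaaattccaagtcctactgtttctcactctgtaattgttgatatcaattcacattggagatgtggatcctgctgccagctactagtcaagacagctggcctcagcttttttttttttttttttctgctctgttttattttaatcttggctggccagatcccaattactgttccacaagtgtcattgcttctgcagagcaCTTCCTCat
Cd68: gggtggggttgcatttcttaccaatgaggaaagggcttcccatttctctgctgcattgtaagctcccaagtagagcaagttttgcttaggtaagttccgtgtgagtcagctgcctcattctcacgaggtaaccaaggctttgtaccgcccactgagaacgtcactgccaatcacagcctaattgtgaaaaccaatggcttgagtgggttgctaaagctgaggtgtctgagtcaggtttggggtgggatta
On either strand, CTGATTGG was found in 2 of the 29 members searched, these same class II genes, and in 3.83% of the 32851 tabulated promoters. GAGGAAG was found in 10 of the 29 and in 10.6% of all. A match describes letters in the window and shows neither binding nor a cause of any level given here.

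Depth ranged from 4702823 to 27787120 counted reads per library. Some fiber libraries also held reads on sensory receptor genes. Of 1504 olfactory, vomeronasal and taste receptor genes, 2.33% to 4.85% had a read in whole muscle. Single fibers 1 to 3 had shares of 26.7%, 4.85% and 9.91%. 5-fiber pools 1 to 3 had 58.1%, 68.8% and 4.59%. 20-fiber pools 1 to 3 had 78.7%, 97.3% and 95.4%. Because low counts in such libraries may be of the same kind, the 99th percentile of read density (reads per kilobase of exon) over these receptor genes was taken as the background of a library or group. Levels are in CPM, counts per 1000000 library reads after scaling with trimmed-mean factors (TMM), and each mean carries the SD over 3 libraries. Intervals and limits for counts of 0 cover counting error only. In RNA from many cells, fewer cells of a type and less RNA per cell cannot be told apart.

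All 38 genes had reads above the background density in each whole muscle library. They drew 10724, 25353 and 29203 reads there, 0.133% ± 0.006 of all reads (SD, n = 3). Single fibers gave 3823, 855 and 3583 reads on them, 5-fiber pools 1314, 794 and 1147, and 20-fiber pools 512, 1200 and 3477. Most single-fiber reads came from only 4 genes, Cd68, Lgals3, Mrc1 and Cbr2, the members with a read in all 9 fiber libraries. These 4 genes, a division made after the values were seen, held 97.3% ± 1.5 of member reads in single fibers and 6.32% ± 0.17 in whole muscle. On the other 34 genes, single fibers 1 to 3 gave 66, 38 and 67 reads, which summed to 0.648%, 0.290% and 0.702% of the whole muscle mean of 850 CPM ± 73.9. Of the 38 members, 14 had no read in any single fiber and another 7 had 1 to 3 reads over all 3.

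Against whole muscle, the 9 isolated fiber libraries had 31 of the 38 genes called lower and none higher by edgeR's quasi-likelihood test, where 7.78% of all genes tested were called lower. In 26 of the 38, every fiber library lay under every whole muscle library, which held for 7.72% of genes tested. Single fibers alone had 33 called lower (19.8% of genes tested) and 1, Cd68, called higher (13.9%). The libraries of Cd68 overlapped between these groups, and its call was lost without single fiber 1 or 3 or without any 1 whole muscle library. For pools of 5 the counts were 8 lower (4.22%) and 1 higher (4.63%), again Cd68. This call of Cd68 was lost without 5-fiber pool 1 or without any 1 whole muscle library. The 8 were Cd74, C1qa, C1qb, C1qc, Folr2, Retnla, Lyz2 and Cd53, and the count ran from 1 without any 1 whole muscle library to 29 without 5-fiber pool 3. For pools of 20 it was 21 lower (13.5%) and none higher. Nothing is read from these counts, since this difference chose the genes, and the 3 comparisons share their whole muscle libraries. The 7 members not called over all fibers were Cd68, Mrc1, Lgals3, Cbr2, Ptprc, Itgam and Cx3cr1. By DESeq2, 1 member, Cd68, was called higher over all fibers.

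**Figure D1:**
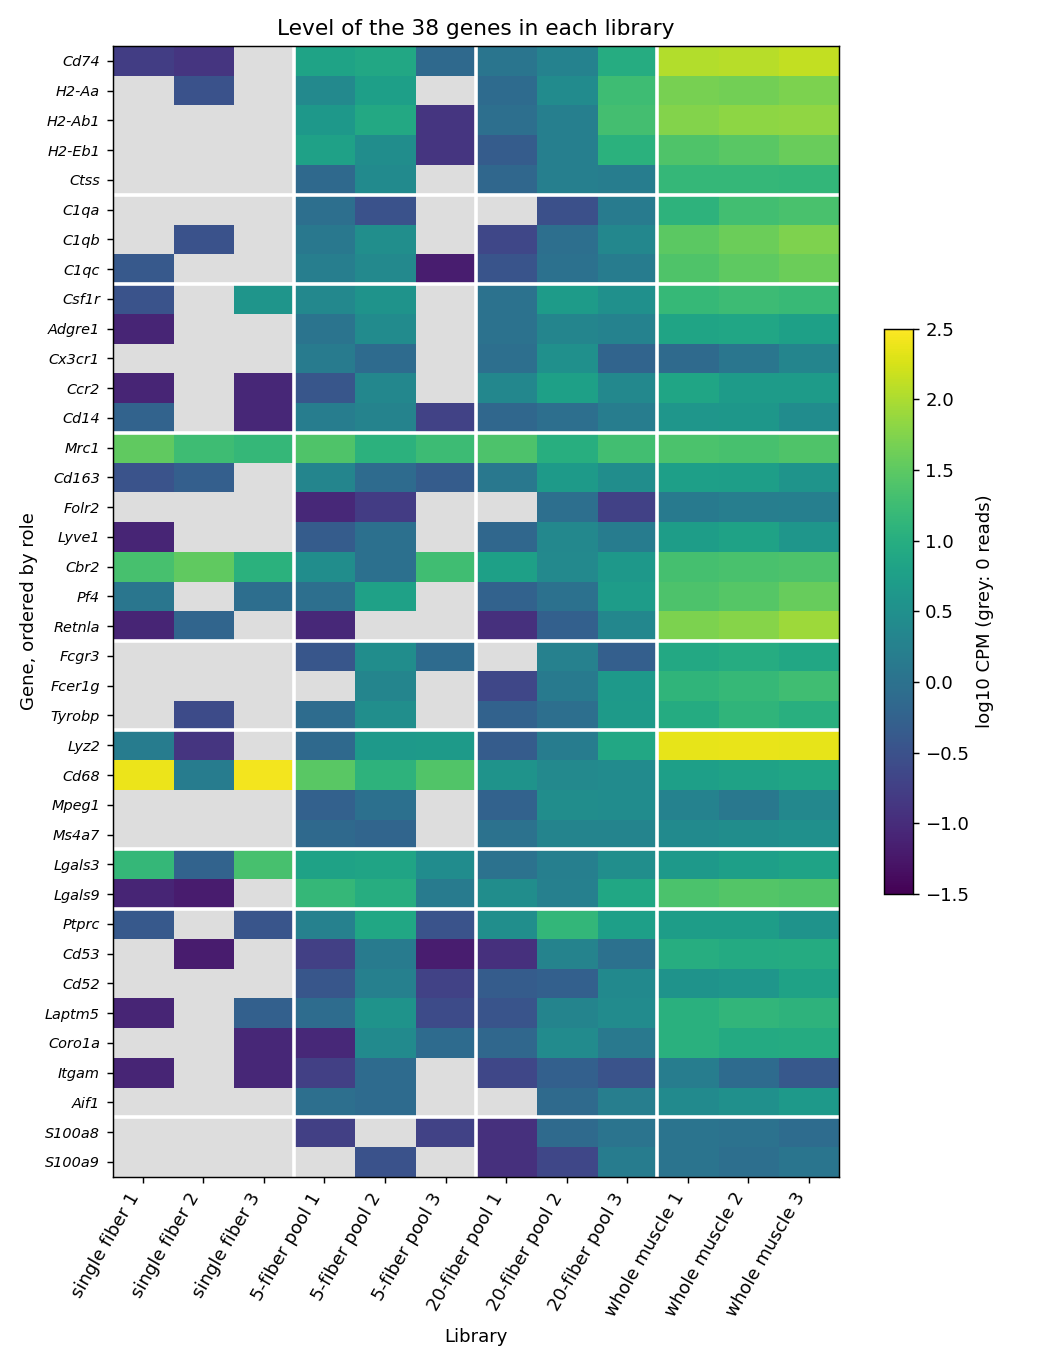
Level of each of the 38 genes (rows, grouped by role) in each of the 12 libraries (columns), as log10 CPM, with grey for 0 reads. Whole muscle columns are filled throughout, single-fiber columns are grey in 19 to 26 of 38 rows, and the rows of Mrc1, Cbr2, Cd68 and Lgals3 are filled in every column.

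The class II genes were among the genes furthest down in single fibers. H2-Ab1 (ENSMUSG00000073421, chr17:34257689-34269419), H2-Aa (ENSMUSG00000036594, chr17:34282744-34287823) and H2-Eb1 (ENSMUSG00000060586, chr17:34305867-34316674) are neighbors on chromosome 17, and reads were counted over exons. Cd74 stood at 110, 117 and 136 CPM in whole muscle and at 0.167, 0.130 and 0 CPM in single fibers. It reached 6.52, 7.86 and 0.724 CPM in 5-fiber pools and 1.14, 1.90 and 9.46 CPM in 20-fiber pools. Every fiber library lay far under whole muscle, and within each pool size 1 library stood apart from the other two. H2-Ab1, a class II beta chain, had no read in any single fiber. Its 5-fiber pools held 4.23, 8.35 and 0.132 CPM, its 20-fiber pools 0.911, 1.67 and 19.9 CPM, and whole muscle 56.4, 65.0 and 69.2 CPM. H2-Aa read 0, 0.325 and 0 CPM in single fibers, 2.39, 5.78 and 0 in 5-fiber pools, 0.797, 2.73 and 17.9 in 20-fiber pools, and 47.4, 44.7 and 51.1 in whole muscle. The alpha and beta chains thus had the same highest pool of 20, number 3. H2-Eb1 read 0 CPM in all single fibers, then 6.16, 2.89 and 0.132, then 0.456, 1.67 and 11.5, and 25.3, 30.5 and 38.5 in whole muscle. Ctss had no read in single fibers and averaged 1.10 ± 1.32 CPM in pools of 5, 1.30 ± 0.54 in pools of 20 and 14.4 ± 0.45 in whole muscle.

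The proportions among class II genes in the pools with most class II reads differed from those in whole muscle. Per kilobase of exon, Cd74 made up 58.1%, 56.9% and 57.3% of the summed density of Cd74, H2-Aa, H2-Ab1 and H2-Eb1 in whole muscle. It made up 41.7% and 42.8% in 5-fiber pools 1 and 2, and 23.4% in 20-fiber pool 3. In reads, Cd74 took 200 of 1243 in 20-fiber pool 3, 16.1% (Clopper-Pearson 95% interval 14.1% to 18.3%). It took 45.5% (44.4% to 46.7%) in whole muscle 2, the whole muscle library with the lowest share. 5-fiber pool 1 lay between, with 71 of 210 reads, 33.8% (27.4% to 40.6%). 5-fiber pool 3 went the other way, with Cd74 at 78.4% of the density, from only 15 reads. With 155 or fewer reads in each of the remaining fiber libraries, their proportions are less precise.

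C1q, the complement component that binds immune complexes and dying cells, is built from chains A, B and C encoded by neighboring genes on chromosome 4, C1qb at chr4:136880129-136886187, C1qc at chr4:136889804-136893065 and C1qa at chr4:136895917-136898803. C1qb read 31.1, 40.5 and 52.5 CPM in whole muscle. In single fibers it read 0, 0.325 and 0 CPM, in pools of 5 1.29, 3.05 and 0 CPM, and in pools of 20 0.228, 0.910 and 2.22 CPM. C1qa had no read in any single fiber, 0.919, 0.321 and 0 CPM in pools of 5, 0, 0.303 and 1.47 CPM in pools of 20, and 12.3, 19.2 and 22.4 CPM in whole muscle. C1qc read 0.417, 0 and 0 CPM in single fibers, 1.65, 2.41 and 0.0658 CPM in pools of 5, 0.342, 0.986 and 1.51 CPM in pools of 20, and 25.0, 31.9 and 40.2 CPM in whole muscle. All 3 chains ranked the whole muscle libraries in the same order, and no fiber library reached any of them. In whole muscle C1qb made up 53.6%, 51.6% and 53.3% of the summed density per kilobase, with C1qa at 22.2% to 25.6% and C1qc at 22.9% to 24.3%. 20-fiber pool 3, the fiber library with most C1q reads (110), had 33.3%, 48.2% and 18.5% for chains A, B and C.

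Among receptors that mark the lineage or direct its migration, Csf1r, the receptor for colony stimulating factor 1, read 15.2, 17.5 and 15.7 CPM in whole muscle. Single fibers read 0.334, 0 and 3.83 CPM, pools of 5 2.30, 3.53 and 0, and pools of 20 1.03, 4.93 and 3.22. The 43 reads behind the value in single fiber 3 lay 7.91 times above that library's background density, while the reads of all 20-fiber pools lay within background. Of the exon sequence of Csf1r, 10.9% of 50-base windows also occur in Hmgxb3, so some of its reads could be shared. Adgre1, the F4/80 antigen of macrophages, read 0.0834, 0 and 0 CPM in single fibers, 1.10, 2.73 and 0 in pools of 5, 1.03, 2.12 and 1.84 in pools of 20, and 6.74, 7.50 and 5.94 in whole muscle, which lay above all other groups. Ccr2, the monocyte chemokine receptor, read 0.0834, 0 and 0.0891 CPM in single fibers, 0.368, 2.25 and 0 in pools of 5, 2.28, 5.91 and 2.36 in pools of 20, and 7.05, 5.00 and 4.90 in whole muscle. Its 20-fiber pool 2 overlapped whole muscle, and that pool had the densest receptor-family reads. Cd14, a co-receptor for lipopolysaccharide, averaged 0.224 ± 0.315 CPM in single fibers against 3.60 ± 0.72. The fractalkine receptor Cx3cr1 had no read in single fibers, 1.47, 0.802 and 0 CPM in pools of 5, 0.911, 3.19 and 0.615 in pools of 20, and 0.774, 1.18 and 2.06 in whole muscle. Its pools of both sizes overlapped whole muscle. Its annotated span holds 9 other genes, and strand handling is not given in the sources used here.

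Of 7 genes named for resident macrophages, Retnla, which encodes a secreted resistin-like protein, read 50.9, 59.2 and 81.4 CPM in whole muscle. Single fibers read 0.0834, 0.649 and 0 CPM, pools of 5 0.0919, 0 and 0, and pools of 20 0.114, 0.531 and 2.27. No fiber library came near the lowest whole muscle value. Pf4, whose upstream sequence is printed above, kept 2.30% of its whole muscle mean of 29.8 CPM ± 7.0 in single fibers, 7.85% in pools of 5 and 7.56% in pools of 20. Cd163, a scavenger receptor for haptoglobin and hemoglobin, read 0.334, 0.519 and 0 CPM in single fibers, 2.11, 0.802 and 0.461 in pools of 5, 1.25, 4.78 and 2.88 in pools of 20, and 5.65, 5.57 and 3.75 in whole muscle. Again 20-fiber pool 2 was the highest fiber library, and it overlapped whole muscle. Lyve1, a hyaluronan receptor, averaged 0.0278 ± 0.0482 CPM in single fibers against 5.18 ± 1.19, and the folate receptor Folr2 had no read in single fibers against 1.58 ± 0.16. Of the windows of Folr2, 55.2% are shared with Gm10602, so its level is uncertain.

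The Fc receptor Fcgr3 and the adaptor Fcer1g had no read in single fibers, against 8.57 ± 0.87 and 15.7 ± 3.1 CPM in whole muscle. Tyrobp, the adaptor also called DAP12, averaged 0.0866 ± 0.150 against 10.9 ± 2.0 CPM. Lyz2, the lysozyme of phagocytes, had the highest level of the 38 in whole muscle, 227, 235 and 225 CPM, and also the highest per kilobase, 174 CPM. Single fibers read 1.5, 0.130 and 0 CPM, pools of 5 0.735, 4.65 and 4.74, and pools of 20 0.456, 1.52 and 7.90. Of its windows, 14.8% are shared with the paralog Lyz1. Mpeg1, a pore-forming protein of phagocytes, had no read in single fibers and 2.06 ± 1.3 CPM in pools of 20, within background density, against 1.83 ± 0.52 in whole muscle. Ms4a7, a member of the tetraspanning MS4A family, had no read in single fibers either, 0.735, 0.642 and 0 CPM in pools of 5, 1.03, 2.05 and 1.99 in pools of 20, and 2.56, 2.93 and 3.28 in whole muscle. Lgals9, a galectin of the tandem-repeat type, read 23.7, 26.6 and 24.9 CPM in whole muscle and 0.0834, 0.0649 and 0 CPM in single fibers. It read 14.7, 9.79 and 1.45 CPM in pools of 5 and 2.85, 1.74 and 7.52 CPM in pools of 20. Pools of 5 thus averaged 34.5% of whole muscle, and all 3 lay above every single fiber.

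Of the 7 genes common to leukocytes, Ptprc, which encodes CD45, read 0.417, 0 and 0.356 CPM in single fibers, 1.84, 7.70 and 0.329 in pools of 5, 2.96, 14.2 and 5.77 in pools of 20, and 5.42, 5.25 and 3.65 in whole muscle. Its highest library was 20-fiber pool 2, where receptor-family genes also had the most reads, and in every fiber library it lay within background density. Cd53, Cd52, Laptm5, Coro1a and Aif1 ranged from 3.48 to 12.3 CPM on average in whole muscle and kept 0% to 1.67% in single fibers, 6.07% to 16.7% in pools of 5 and 11% to 25.1% in pools of 20. The integrin Itgam averaged 0.913 ± 0.583 CPM in whole muscle, and 83.0% of its windows are shared with the overlapping gene Gm49368, so its reads cannot be assigned. The calgranulins S100a8 and S100a9, which are abundant in neutrophils, had no read in single fibers. In whole muscle S100a8 read 1.08, 1.04 and 0.811 CPM and S100a9 1.08, 0.928 and 1.15 CPM. In 20-fiber pool 3 they read 1.09 and 1.51 CPM, and in the other pools S100a8 read 0 to 0.758 CPM and S100a9 0 to 0.321 CPM. Markers of neutrophils other than these 2 genes summed to 0.519 CPM ± 0.530 over 10 genes in whole muscle, where Ly6g, Ngp, Ltf and Cxcr2 had no read, and to 5.47, 18.5 and 4.92 CPM in 20-fiber pools 1 to 3. The highest of these sums was in 20-fiber pool 2, where receptor-family reads were densest, and the part of background reads in them was not tested. The part of neutrophils in the S100 levels of the pools was not tested either.

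**Figure D2:**
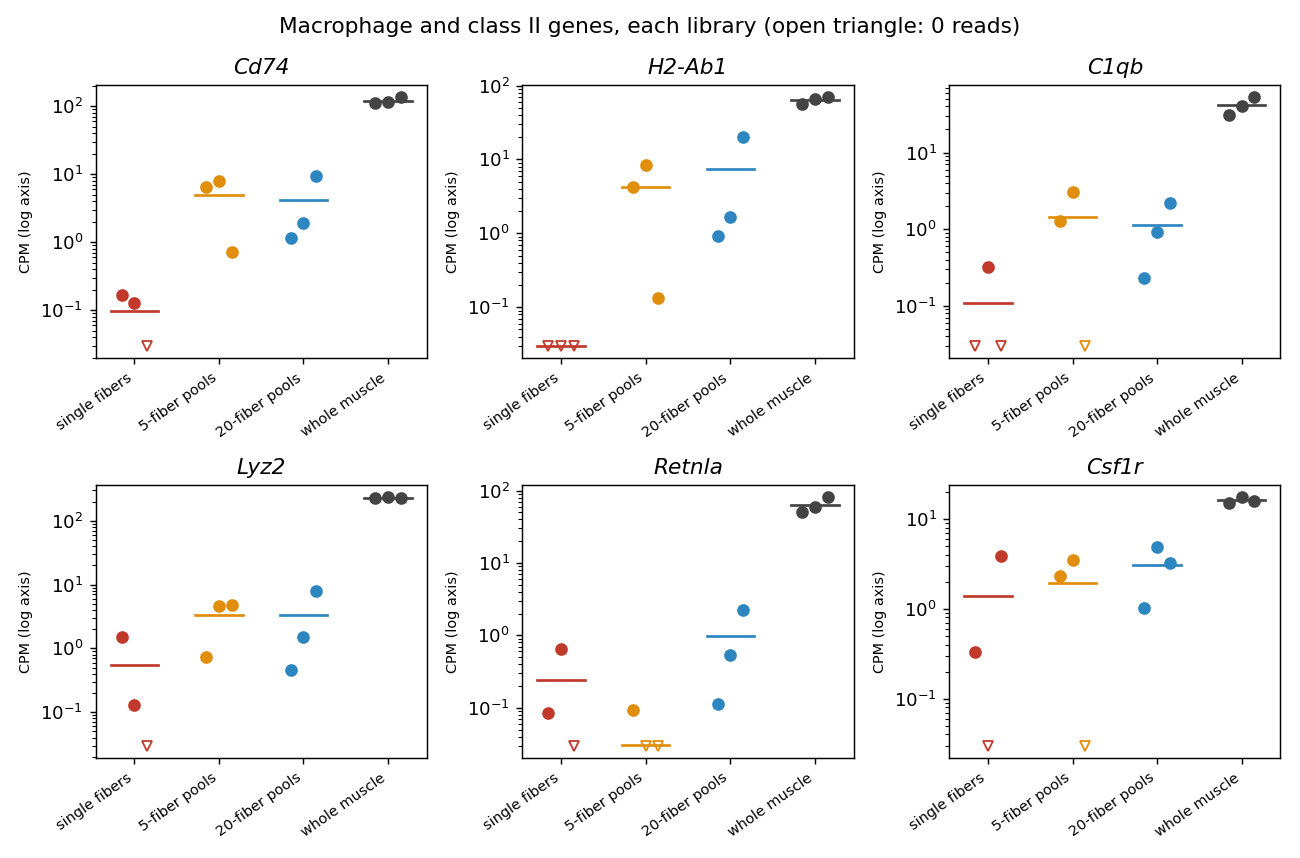
CPM (log axis) of Cd74, H2-Ab1, C1qb, Lyz2, Retnla and Csf1r in each library, with the group mean as a line and an open triangle for 0 reads (drawn at the bottom of the axis, as is a mean of 0). The 3 whole muscle libraries sit together above every fiber library in all 6 panels, and the pools of each size spread over a wide range.

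Of the 38 members, 12 overlapped between fibers and whole muscle. For Cx3cr1, Ccr2, Cd163, Mpeg1, Ptprc, Itgam, S100a8 and S100a9 the levels are given above. The other 4 had reads in every fiber library. Mrc1, the mannose receptor CD206 of macrophages, read 33.3, 18.1 and 14.7 CPM in single fibers, 24.9, 11.9 and 17.4 in pools of 5, 23.9, 10.0 and 19.5 in pools of 20, and 23.0, 21.5 and 24.6 in whole muscle. All 4 groups overlapped. In single fibers its density lay 23.1 to 51.5 times above the background of the library, and none of its sampled windows occur in another annotated transcript. Cbr2, a carbonyl reductase, read 21.4, 32.9 and 11.1 CPM in single fibers, 2.85, 0.963 and 18.7 in pools of 5, 6.04, 2.43 and 4.30 in pools of 20, against 20.8, 22.2 and 23.7 in whole muscle. The single fibers spanned the whole muscle values, and all pools lay under them. Of the windows of Cbr2, 16.3% are shared with Gm11771.

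Cd68 was the gene with the widest range. It read 244 and 266 CPM in single fibers 1 and 3 but 1.49 CPM in single fiber 2. Pools of 5 read 29.8, 12.2 and 26.1 CPM, pools of 20 read 3.53, 2.43 and 2.65 CPM, and whole muscle read 5.73, 6.39 and 7.23 CPM. Single fibers 1 and 3 were the highest of all 12 libraries and single fiber 2 the lowest. Lgals3, which encodes galectin-3, showed the same order among single fibers, with 14.5, 0.584 and 21.6 CPM. It read 6.34, 6.90 and 2.83 CPM in pools of 5, 1.03, 1.67 and 2.98 CPM in pools of 20, and 4.57, 5.68 and 6.52 CPM in whole muscle. No sampled window of Cd68 or Lgals3 occurs in another annotated transcript. The nearest protein-coding gene upstream of Cd68 on the same strand is Eif4a1, a translation initiation factor, which ends 782 bases before it. Eif4a1 read 167, 59.2 and 189 CPM in single fibers, 106, 54.6 and 163 in pools of 5, 108, 26.9 and 82.9 in pools of 20, and 67.5, 62.5 and 59.0 in whole muscle. Single fiber 2 was the lowest of the single fibers for both genes. Whether reads of the neighbor contribute to Cd68 was not tested.

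**Figure D3:**
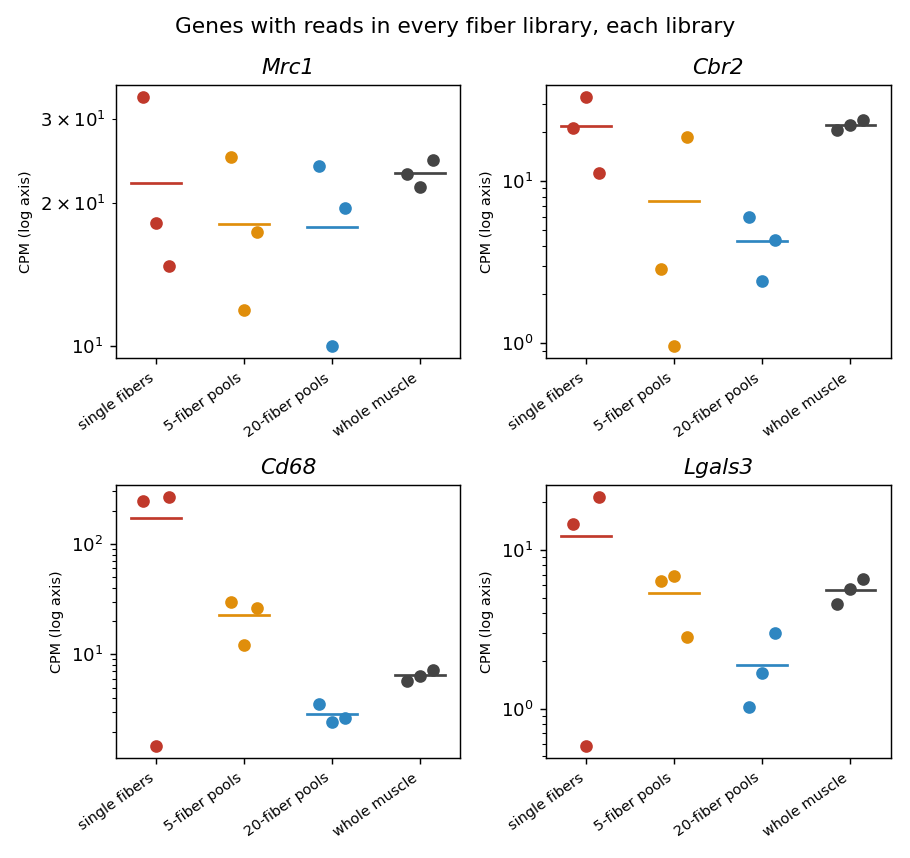
CPM (log axis, a separate range in each panel) of Mrc1, Cbr2, Cd68 and Lgals3 in each library, with the group mean as a line. Mrc1 overlaps across all groups, and for Cd68 and Lgals3 single fibers 1 and 3 lie above every other library while single fiber 2 lies below all of them.

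The fiber preparations were then compared with each other, to ask whether the number of fibers in a library went with the level of these genes. Between single fibers and pools of 20, 10 members were lower and 2 higher in single fibers at an adjusted p under 0.05 (edgeR, quasi-likelihood test, adjusted over all genes tested). Only 17 of the 38 passed the filter on low counts, so these counts do not describe the whole list. All 10 lower members passed through their pools of 20 alone. Such genes had to differ, and the count of 10 is no support for a difference of the list. Over all genes tested, 27.5% were called lower and 8.52% higher, with a median log2 fold change of -0.74 (-0.96 with upper-quartile scaling). In 23 of the 38 members every single fiber lay under every pool of 20, which held for 34% of genes tested. Receptor-family genes moved in the same direction: of 403 tested, 372 were lower in single fibers (92.3%), with a median of -6.85. Their part in the falls given next was not tested.

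The 10 lower genes were Cd74, H2-Aa, H2-Ab1, Adgre1, Cx3cr1, Ccr2, Cd163, Ms4a7, Lgals9 and Ptprc. For 4 of them the reads of the pools of 20 lay above background density. Cd74 fell by 5.62 on the log2 scale (SE 1.37) and H2-Aa by 6.17 (SE 1.42). H2-Ab1, at 0 in all single fibers, was at least 135-fold lower there, computed with 3 counts over the group. Lgals9 had 2 reads against 207, a pooled ratio of 92.7 (95% counting interval 25.3 to 770). All 4 passed the filter through their pools of 20 alone, so none is given with a p. In all 4, each single fiber lay under each pool of 20. Within the pools the class II genes exceeded their own library's background in 1 of 3, 20-fiber pool 3, at 6.78 to 11.2 times, and Lgals9 in 2 of 3. None of the 6 fits that each left out a library, 20-fiber pool 3 included, lost any of these 4 calls. For genes that passed the filter in this way, that is no support for a difference.

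The other 6 lay within background density in the pools of 20. Like the genes above, these 6 passed the filter through their pools of 20 alone and are given without a p. Ptprc fell by 5.57 (SE 1.14) and Cd163 by 4.0 (SE 1.31). Ptprc lost its call without 20-fiber pool 2, the library with the densest receptor-family reads. Cd163 lost its call without that pool or without single fiber 3. Cx3cr1 was at least 18.8-fold lower and Ms4a7 at least 23.3-fold lower. Both were at 0 in all single fibers. Adgre1 had 1 read against 76, a pooled ratio of 68.1 (11.9 to 2723). Ccr2 had 2 against 148, a ratio of 66.3 (18.0 to 552). For these 6 genes, a difference in macrophage RNA and a difference in background reads cannot be told apart.

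Cd68 and Cbr2 went in the opposite direction. Cd68 was higher in single fibers by 5.49 on the log2 scale (SE 1.20, edgeR adjusted p = 0.00727), although single fiber 2 lay under all pools of 20. Without 20-fiber pool 2 the edgeR adjusted p of Cd68 was 0.0571. Cbr2 was higher by 1.95 (SE 0.51, edgeR adjusted p = 0.0107), with each single fiber above each pool of 20. Mrc1 differed by -0.09 (SE 0.45, edgeR adjusted p = 0.894), which does not show that levels were equal, and the estimate turned to 0.42 with no filter and 0.31 with all 12 libraries in one fit. Lgals3 stood at 2.26 (SE 0.95, edgeR adjusted p = 0.0729). It passed the threshold in 4 of 6 fits that left out a library, without single fiber 1 or 2 or 20-fiber pool 1 or 3, over a range of edgeR adjusted p from 0.000105 to 0.19. It also passed with no filter and with all 12 libraries in one fit. Lyz2 stood at -3.00 (SE 1.44, edgeR adjusted p = 0.113), Pf4 at -2.05 (SE 1.35, edgeR adjusted p = 0.245) and Csf1r at -1.68 (SE 1.38, edgeR adjusted p = 0.352). Lyz2 passed the threshold with no filter and without single fiber 1 (edgeR adjusted p = 0.00289), and Csf1r without single fiber 3, at -4.10 (edgeR adjusted p = 0.0196). The upstream neighbor of Cd68, Eif4a1, stood at 0.64 (SE 0.59, edgeR adjusted p = 0.409) in the same comparison.

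**Figure D4:**
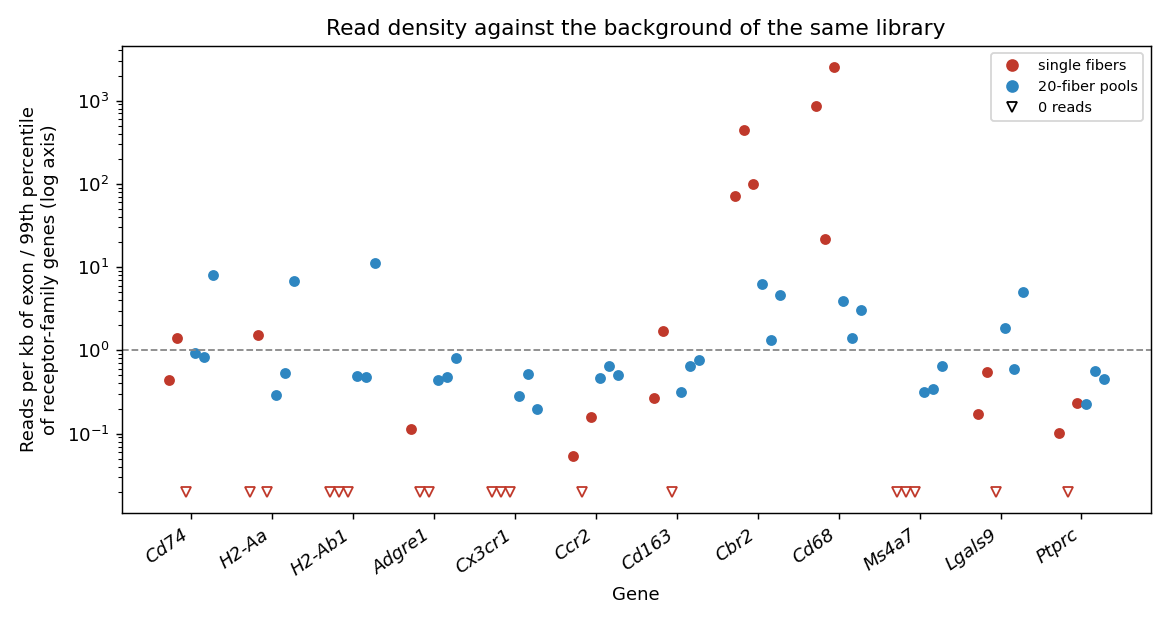
Reads per kilobase of exon divided by the 99th percentile of receptor-family genes in the same library (log axis), for the 12 members called between single fibers and pools of 20, with triangles for 0 reads and a dashed line at 1. Over the single fibers and pools of 20 drawn, Cd68 and Cbr2 lie above the line in every library. Cd74, H2-Aa and H2-Ab1 rise above it in 1 of 3 pools of 20. Adgre1, Cx3cr1, Ccr2, Cd163, Ms4a7 and Ptprc lie below it in all pools of 20.

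Between single fibers and pools of 5, none of the 8 members tested was called, and 2 of 12700 genes were called in all (0.0157%) where 1132 had an unadjusted p under 0.05. The member with the lowest p was Lgals9, with 2 reads against 243, a pooled ratio of 145 (39.8 to 1206; edgeR adjusted p = 0.153). It passed the filter through its pools of 5 alone. DESeq2 called 423 genes in this comparison, among them Lgals9. Between pools of 5 and pools of 20 none of the 28 members tested was called, nor any other gene (0%), while 1502 of 17113 had an unadjusted p under 0.05 and DESeq2 called 179. Cd68 stood at 2.85 in that comparison (SE 0.52, edgeR adjusted p = 0.485), with each pool of 5 above each pool of 20, and DESeq2 called it. Cd74, H2-Aa, H2-Ab1 and H2-Eb1 stood between -1.48 and 0.18, with standard errors of 0.96 to 1.35.

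Markers of the other cells of muscle were read beside the 34 genes. The 12 endothelial markers summed to 0.230% to 0.813% of their whole muscle mean in single fibers, with Esam at 0. They summed to 69.8%, 53.7% and 8.24% in 5-fiber pools 1 to 3, and to 8.18%, 7.42% and 56.0% in 20-fiber pools 1 to 3. The 34 genes stood at 6.69%, 11.2% and 1.24%, then at 2.80%, 8.76% and 15.9%. In pools of 5 both lists were lowest in pool 3, and in pools of 20 both were highest in pool 3. The 8 markers of pericytes and smooth muscle summed to 0.522% to 4.0% in single fibers, 11% to 121% in pools of 5 and 9.83% to 66.0% in pools of 20. The 7 erythroid markers summed to 0.0475% to 0.200%, 14.4% to 61.0% and 2.90% to 47.1%, and the 11 fibroblast markers to 0.271% to 6.28%, 1.36% to 13.5% and 2.10% to 13.7%. No erythroid, pericyte or fibroblast marker was at 0 in a whole group. Adipocyte markers summed to 2.40% to 38% in single fibers, with Lep at 0, and mast cell markers to 0.586% to 1.10%, with Cpa3, Tpsb2 and Fcer1a at 0. The 7 dendritic cell markers, which summed to only 12.1 CPM in whole muscle, stood at 24.7% to 87.7% in single fibers, with Siglech and Ccr7 at 0, and at 78.2% to 290% in pools of 20. The 12 lymphocyte markers summed to 7.60 CPM in whole muscle and stood at 76.0% to 107% in single fibers, with Ms4a1 and Nkg7 among those at 0, and at 419% to 609% in pools of 20. The 6 lymphatic endothelial markers went the other way, at 330, 11.8 and 431 CPM in single fibers 1 to 3 against 19.0 CPM ± 2.5 in whole muscle, where single fibers 1 and 3 were also the ones high in Cd68 and Lgals3. Most of that sum was Pdpn, which encodes podoplanin, at 323, 11.6 and 423 CPM, while Mmrn1 and Ccl21a were at 0 in single fibers. The 7 satellite cell markers stood at 62.9% to 138% in single fibers, 88.4% to 118% in pools of 5 and 60.5% to 143% in pools of 20. In the pools of 20, 78.7% to 97.3% of receptor-family genes also had a read. The part of such background reads in the lymphocyte and dendritic cell sums there was not tested. All the sums of this paragraph can rest on a few genes. In single fibers 1 to 3 the median over adipocyte markers was 0.161%, 0.00405% and 0% of whole muscle. It was 37.7%, 0% and 0% for lymphocyte markers and 21.9%, 0% and 0% for dendritic cell markers. For satellite cell markers it was 47.2%, 16.9% and 8.53%. The part of all these cells in the levels of the members was not tested. The 9 genes of the contractile fiber stood at 184% to 322% in single fibers and at 18.6% in 20-fiber pool 2, their lowest value.

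**Figure D5:**
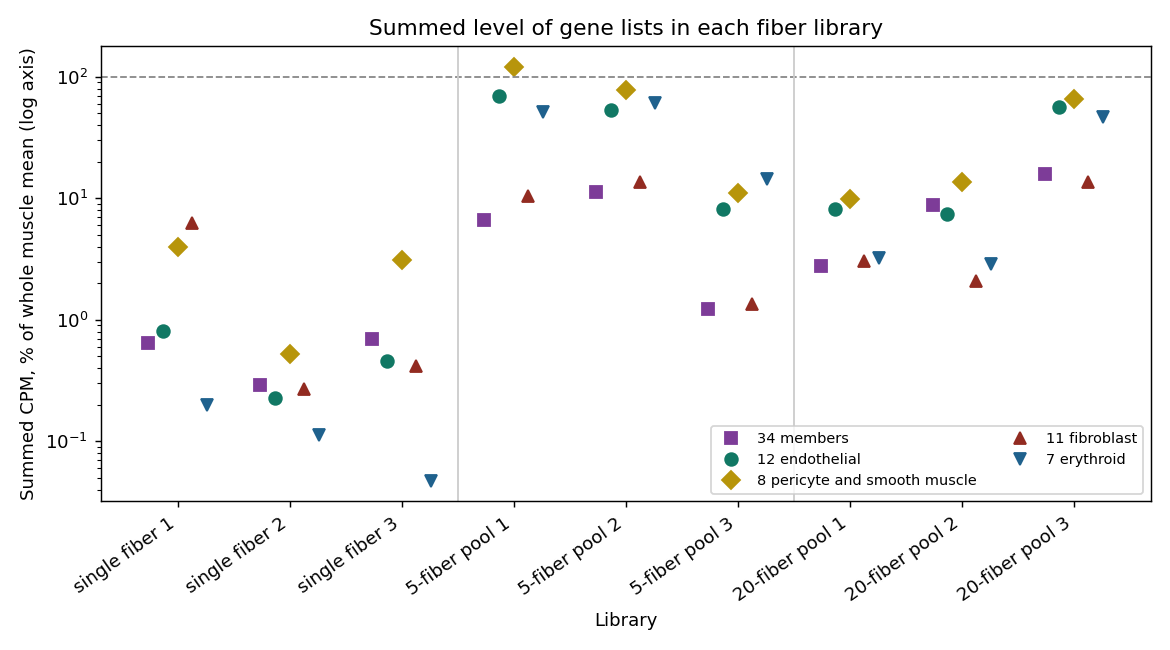
Summed CPM as a percentage of the whole muscle mean (log axis, dashed line at 100%) in each fiber library, for the 34 members other than Cd68, Lgals3, Mrc1 and Cbr2 and for markers of endothelium, pericytes and smooth muscle, fibroblasts and erythroid cells. Single fibers hold under 1% of the 34 members. Relative to whole muscle, every pool except 20-fiber pool 2 holds more endothelial and erythroid RNA than RNA of the 34 members.

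Genes that work with these members were taken from 6 lists. Of 11 accessory genes of class II presentation, isolated fibers had 3 of 9 tested called lower than whole muscle and none higher, with a median log2 fold change of -0.71. Over all genes tested, 7.78% were called lower and 7.46% higher, with a median of 0.40. The 3 were Lgmn, H2-DMa and H2-DMb1, named after their values were seen. Lgmn, the lysosomal protease legumain, and Ifi30, a thiol reductase, were the highest per kilobase in whole muscle. Between single fibers and pools of 20, Ciita, the class II transactivator, was called lower by 4.56, H2-Ob by 5.54 and Cd86, a costimulatory ligand, by 4.75. Like the lower members above, these genes passed the filter through their pools of 20 alone. They are given without a p, and their calls are no support for a difference. Lgmn rose by 1.40 (edgeR adjusted p = 0.0362). Its level was 19.5 ± 4.9 CPM in single fibers, 5.75 ± 2.98 in pools of 20 and 30.8 ± 3.6 in whole muscle. Ciita, H2-Ob and Cd86 averaged 3.59, 1.96 and 2.33 CPM in pools of 20 and 0.667, 0.801 and 2.35 CPM in whole muscle. Over the pools of 20 their density was 15.8, 15.8 and 27.3 reads per kilobase, within the receptor-family background of 29.9, so these falls and a difference in background reads cannot be told apart. Each was highest in 20-fiber pool 2.

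MHC class I, which most cells display, behaved unlike class II in level. The invariant light chain B2m and the heavy chain H2-D1 were the highest of 12 class I genes per kilobase in whole muscle. B2m averaged 355 ± 141 CPM in single fibers, 363 ± 44 in pools of 5, 159 ± 137 in pools of 20 and 232 ± 27 in whole muscle. H2-D1 averaged 320 ± 169, 312 ± 176, 132 ± 118 and 228 ± 29 CPM in the same order. Of the 12, 2 were called lower in isolated fibers than in whole muscle (7.78% of all genes tested), Psmb9 and Pdia3, with a median of -0.45. The immunoproteasome subunits Psmb8 and Psmb9 were lower in single fibers than in pools of 20, with log2 fold changes of -3.21 (edgeR adjusted p = 0.0123) and -3.38 (edgeR adjusted p = 0.0376). The other 10 were not called, where 27.5% of all genes tested were called lower.

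Of 6 subunits of the phagocyte NADPH oxidase, 3 were called lower in isolated fibers (7.78% of all genes tested), with a median of -2.93. The membrane subunit Cyba and the GTPase Rac2 were the highest per kilobase in whole muscle, at 15.7 ± 2.5 and 3.64 ± 0.72 CPM, and stood at 0.670 ± 0.351 and 0.173 ± 0.150 CPM in single fibers. Cybb, the catalytic subunit, had no read in single fibers against 82 over the pools of 20, within background density there. Of 23 phagocytic and pattern receptors, 13 were called lower in isolated fibers (7.78% of all genes tested), with a median of -2.55. Itgax, with 1 read in all of whole muscle, was the 1 called higher (7.46% of all genes tested). Its density over the pools of 20 was 23.7 reads per kilobase, within the receptor-family background of 29.9. The neonatal Fc receptor Fcgrt and the receptor tyrosine kinase Axl were highest per kilobase in whole muscle, at 68.8 ± 11.9 and 47.0 ± 5.1 CPM. They stood at 16.8 ± 3.3 and 6.26 ± 5.32 CPM in single fibers. Of the 23, only 12 passed the filter on low counts between single fibers and pools of 20. Of these 12, 6 were lower, where 27.5% of all genes tested were called lower. They were Mertk, Msr1, Timd4, Clec7a, Stab1 and Trem2. Each stood at no more than 0.312 CPM in single fibers and no more than 4.85 CPM in pools of 20. With so few reads in single fibers, they passed the filter through their pools of 20, and the count of 6 is no support for a difference. All 6 lay within background density in the pools of 20.

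The 9 myeloid transcription factors did not move as a group. Over all isolated fibers 3 were called lower (7.78% of all genes tested) and 3 higher (7.46%) than in whole muscle, with a median of -0.25. The lower ones were Fli1, Cebpa and Spi1 and the higher ones Maf, Irf8 and Runx1, of which Cebpa, Spi1 and Irf8 are named after their values were seen. Spi1, which encodes PU.1, had no read in single fibers against 3.89 ± 0.73 CPM in whole muscle. Cebpa averaged 0.147 ± 0.186 against 8.23 ± 1.70 CPM. Irf8 went the other way, with 32.0 ± 20.2 CPM in single fibers, 41.2 ± 23.5 in pools of 5, 22.6 ± 16.1 in pools of 20 and 5.49 ± 1.36 in whole muscle. Maf, the highest per kilobase in whole muscle, stood at 230 ± 49 CPM in single fibers against 48.6 ± 6.3 in whole muscle. Between single fibers and pools of 20, Runx1 was higher by 4.10 (edgeR adjusted p = 0.00727), while Fli1 had no read in single fibers and 248 over the pools of 20, above background density.

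The lysosome is an organelle of all cells, and in single fibers its 15 genes summed to 106%, 75.5% and 104% of the whole muscle mean. Of the 15, 4 were called lower over all isolated fibers (7.78% of all genes tested), with Psap, Lamp1 and Grn among them. None was called higher (7.46% of all genes tested), and the median was -0.52. Psap, the precursor of the saposins, and the protease Ctsd were highest per kilobase in whole muscle. Psap averaged 44.5 ± 7.9 CPM in single fibers against 285 ± 27, and Ctsd 390 ± 138 against 218 ± 17. Against pools of 20, Ctsl was higher in single fibers by 1.80 (edgeR adjusted p = 0.0364) and Grn fell by 1.54 (edgeR adjusted p = 0.0405).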

How the data were processed

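Full-length cDNA of 12 mouse EDL libraries was sequenced. The authors deposited raw read counts per gene: per the submitters' processing notes these came from HISAT2, SAMtools and featureCounts on GRCm38 (mm10). The annotation release, strand setting and handling of multiply mapped reads are not given in the sources used here. All 55573 identifiers entered the fits before the filter, and 55480 matched GENCODE vM21, which gave positions and exon lengths.

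Each comparison was fitted on its own libraries with edgeR 4.0.16 (TMM factors, filterByExpr, quasi-likelihood test, Benjamini-Hochberg adjustment over all genes tested, threshold 0.05) in R 4.3.3, after a test of the code on simulated data. CPM use the factors of all 12 libraries, so ratios of CPM differ slightly from fitted fold changes. Depth sets a floor: a count of 0 allows up to 3 reads. Alternatives were other scaling factors, no filter, DESeq2 1.42.0, a replicate block, 1 fit of all 12 libraries, leaving out each library, and leaving out the 5 fiber libraries with most receptor-family reads. Same-number libraries did not deviate together in every pair, so replicate numbers were not used to pair. No replicates were near copies.

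The members, pathway lists and marker lists were chosen with earlier results of these data known. All 38 members are accounted for, and per-library values are given for 16 genes chosen by role and for members called between fiber groups. Of each pathway list, the 2 genes highest per kilobase in whole muscle and up to 5 called between fiber groups by lowest p are named, with exceptions marked; a few genes of these lists are not reported here.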

Additional observations from a re-analysis of the deposited data

How the results depend on the processing

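Counts of the 38 genes called are given as lower and higher in the group named first. Against whole muscle, pools of 5 had 8 lower, but 28 with no filter, 22 by DESeq2 and 3 with the replicate block. Their 1 higher gene became 0 with the replicate block and 0 with all 12 libraries in one fit. The 1 higher gene of single fibers became 0 with the block, and all isolated fibers had 1 higher by DESeq2 in place of 0. Between single fibers and pools of 20, the 10 lower became 27 with no filter, 28 with all 12 libraries in one fit and 0 with the replicate block, where the 2 higher also became 0 and the lowest adjusted p of a member was 0.0891 (edgeR). Between single fibers and pools of 5, 0 lower became 4 with no filter, 1 by DESeq2 and 8 with all 12 libraries in one fit, and 0 higher became 1 with no filter. Between pools of 5 and pools of 20, DESeq2 called 1 higher in place of 0.

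Leaving out 1 library at a time gave 0 to 1 higher and 26 to 33 lower for all isolated fibers against whole muscle, 0 to 2 and 27 to 34 for single fibers, 0 to 1 and 1 to 29 for pools of 5, and 0 to 1 and 20 to 29 for pools of 20. It gave 0 to 1 higher and 0 to 4 lower for single fibers against pools of 5, the 4 without 5-fiber pool 3. It gave 1 to 3 higher and 10 to 25 lower against pools of 20, where each fit without a single fiber or without 20-fiber pool 1 called 23 or more lower. Pools of 5 against pools of 20 gave 0 to 1 and 0. Over all genes, calls between single fibers and pools of 20 went from 6123 to 7 with the block and 15348 with no filter, and calls of isolated fibers against whole muscle from 3370 to 6411 by DESeq2. Upper-quartile scaling turned the latter's split from 1650 higher and 1720 lower to 2119 and 1136. Without the 5 libraries with most background reads it was 1312 and 2281, with 34 members lower and 0 higher. No call reversed direction, and the cause of these shifts was not tested. Because the replicate numbers share only a number, a call lost with the block is not read as a weaker effect. With 3 libraries a group, and 14 members at 0 reads in all single fibers, small differences were not detectable.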
